A study of Homo sapiens with 7 samples.

Results

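The cytosolic ribosomal protein genes are the nuclear genes whose names follow the RPL, RPLP, RPS and RPSA scheme, chosen here by symbol alone. The name rule found 83 of the 21305 genes in the table, 51 of the large and 32 of the small subunit, and all 83 passed the minimum mean of 10 normalized counts. Of these, 6 are listed paralogs that carry an L or L1 suffix (RPL7L1, RPL22L1, RPL26L1, RPL36AL, RPL39L and RPS27L). RNA was measured in 501Mel, an established human melanoma cell line that carried a lentiviral, doxycycline-inducible short hairpin. The 7 libraries comprised 3 controls whose hairpin, shlacZ, targets lacZ of bacteria, and 2 each with the hairpins sh4 and sh8 against the long non-coding RNA GRASLND. According to the methods of the study, hairpins were induced for 3 days, and the sample titles mark all 7 libraries as induced with doxycycline, the control included. The libraries are all of 1 cell line, and neither hairpin could be matched to the target sequences named in the methods. The labels do not say that replicates came from separate cultures, so p-values measure the spread between these libraries only.

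Ribosomal proteins assemble with ribosomal RNA in the nucleolus into a large subunit, which joins amino acids, and a small subunit, which reads the messenger RNA. Their mRNAs are among the most abundant in growing cells, and most begin with a cytosine followed by a tract of pyrimidines, the terminal oligopyrimidine (TOP) tract, through which mTOR and the RNA-binding protein LARP1 control their translation. MYC is known to drive transcription of ribosomal protein genes. A few of the paralogs replace or supplement their parent protein in particular tissues.

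The bases around the start sites are shown for 8 genes whose counts are described below and for 3 further paralogs. Most of the family hold such a tract, while part of the paralogs and some other members lack it. Windows of those other members are not shown. The 8 genes were all lower with sh4 in the test described below and the 3 further paralogs were not. The windows shown are thus no guide to how the tract goes with that fall. RefSeq promoters (GRCh38.p14) were found for 67 of the 83 genes. Each window holds 30 bases of the transcribed strand, with the annotated start as its 16th base, and capitals mark the longest run of C and T where it reached 8 bases.
RPL11, chr1:23691791-23691820, plus strand: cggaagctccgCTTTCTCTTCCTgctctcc
RPLP0, chr12:120201097-120201126, minus strand: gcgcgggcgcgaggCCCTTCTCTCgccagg
RPL14, chr3:40457324-40457353, plus strand: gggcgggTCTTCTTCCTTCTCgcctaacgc
RPL13A, chr19:49487593-49487622, plus strand: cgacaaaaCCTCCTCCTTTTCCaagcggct
RPS6, chr9:19380222-19380251, minus strand: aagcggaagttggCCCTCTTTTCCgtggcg
RPSA, chr3:39406705-39406734, plus strand: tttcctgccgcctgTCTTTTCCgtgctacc
RPL22, chr1:6199581-6199610, minus strand: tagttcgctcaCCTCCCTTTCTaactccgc
RPL22L1, chr3:170870181-170870210, minus strand: cgcggccgtagCTTCCTCTCTgctctcgcg
RPS27L, chr15:63157463-63157492, minus strand: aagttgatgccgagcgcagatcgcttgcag
RPL7L1, chr6:42879601-42879630, plus strand: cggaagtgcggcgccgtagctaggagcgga
RPL26L1, chr5:172958714-172958743, plus strand: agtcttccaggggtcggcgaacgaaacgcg

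A run of at least 8 pyrimidines stood in the windows of 53 of the 67 genes (79.1%), against 16.5% of all 27305 genes with a promoter. The annotated first base was C in 51 of the 67 (76.1%), against 18.0% of all. The letters CTTTCC, searched on the transcribed strand only and able to lie inside a run, were found in 20 genes (29.9%), against 2.0% of all. Of the 5 listed paralogs with a promoter, 2 (RPL22L1 and RPL36AL) held such a run, and of the other 62 genes 51 did (82.3%). RPL11 and RPL26L1 each have another annotated start, and neither RPL26L1 window held a run. A match is a description of letters and not of a working site.

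GRASLND itself, the target, had normalized counts of 308.6, 329.9 and 289.7 in shlacZ, 175.05 and 131.4 with sh4, and 226.7 and 162.9 with sh8. All knockdown libraries thus lay below all controls (exact permutation test over 35 splits, two-sided, p = 0.0571). The reads counted in the genes of the table ran from 13337317 to 22855232 per library, which is not the sequencing depth. Counting error is thus small for these abundant transcripts. Melanocyte lineage markers were present, with means of 36657 for PMEL and 8803 for TYR (the tyrosinase gene) in shlacZ. None of the 4 leukocyte or 4 endothelial markers was among the genes tested, and only KRT10 and COL1A1 of 8 keratinocyte and fibroblast markers were (0 called, lowest adjusted p = 0.487 for the knockdown, by limma). With sh4, 6 of the 8 lineage markers fell beside the ribosomal protein genes, among them TYRP1 (log2 difference -2.04) and MITF (-0.72). Over all genes, 11.9% were called lower with sh4. TYR (0.145) and S100B (0.449) went the other way with sh4 and were not called. With sh8, 0 of the 8 markers passed. The part of these markers in the results below was not tested. In a bulk library, fewer cells of a kind and less RNA per cell cannot be told apart.

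The ribosomal protein genes together took 2.94%, 3.47% and 3.38% of all normalized counts in shlacZ, 2.41% and 2.61% with sh4, and 2.72% and 3.23% with sh8. The sh4 shares (2.51% ± 0.14, SD, n = 2) lay below all controls (3.26% ± 0.288, SD, n = 3), whereas the sh8 shares (2.98% ± 0.366, SD, n = 2) overlapped them. Of the 83 genes, 79 in shlacZ replicate 1 but only 3 in shlacZ replicate 2 and 12 in shlacZ replicate 3 lay below the shlacZ mean. The corresponding counts were 82 and 78 with sh4 but 80 and 47 with sh8. In the plot of the genes by library, the control library numbered 1 lies visibly under the other controls, and sh8 replicate 1 under sh8 replicate 2.

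**Figure D1:**
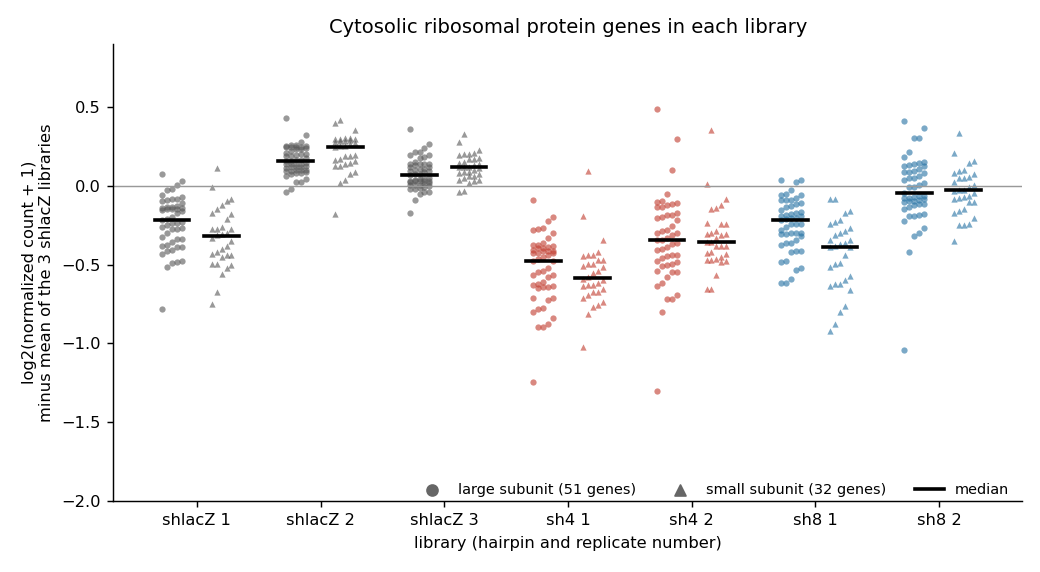
Each point is 1 of the 83 ribosomal protein genes in 1 library, as log2(normalized count + 1) minus the gene's mean over the 3 shlacZ libraries; circles are the large and triangles the small subunit, and black lines are medians. For the large subunit both sh4 medians (-0.48 and -0.35) sit lowest, whereas for the small subunit sh8 replicate 1 (-0.39) lies below sh4 replicate 2 (-0.36), and shlacZ replicate 1 and sh8 replicate 1 sit under the other libraries of their groups.

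With sh4, 33 of the 83 genes fell and 0 rose (limma on log2(normalized count + 1), Benjamini-Hochberg adjusted over all 15420 genes tested, adjusted p under 0.05). Over all genes tested, 11.9% were called lower and 10.5% higher. The median log2 difference of the 83 genes was -0.41, against -0.01 over all genes, and 81 of the 83 values were negative. At an unadjusted p under 0.05, 50 were lower and 0 higher, against 18.9% of all genes lower. In 48 genes both sh4 libraries lay below all 3 controls, against 25.6% of all genes. A fall of over 2-fold was called in 1 gene, RPL22L1, against 3.37% of all genes. The 33 called genes ranged from -1.27 to -0.40 (median -0.55), and all 33 had groups that did not overlap. The other 50 ranged from -0.66 to 0.22 with a larger standard error (median 0.19 against 0.128 for the called genes).

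How many genes were called with sh4 changed with single libraries. The share of all genes called is not given for these fits, and the 11.9% above belongs to the fit with all libraries. Without shlacZ replicate 1, the number was 64. It was 13 without shlacZ replicate 2, 15 without shlacZ replicate 3, 5 without sh4 replicate 1 and 11 without sh4 replicate 2. The last 2 counts rest on an sh4 arm of 1 library, whose spread is taken from the other groups, and the median log2 difference there was -0.35 and -0.54, against -0.41 with all libraries. RPL5, RPL9, RPL11, RPL14 and RPL22L1 were called in all 21 alternative settings, a group named after these values were seen.

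**Figure D2:**
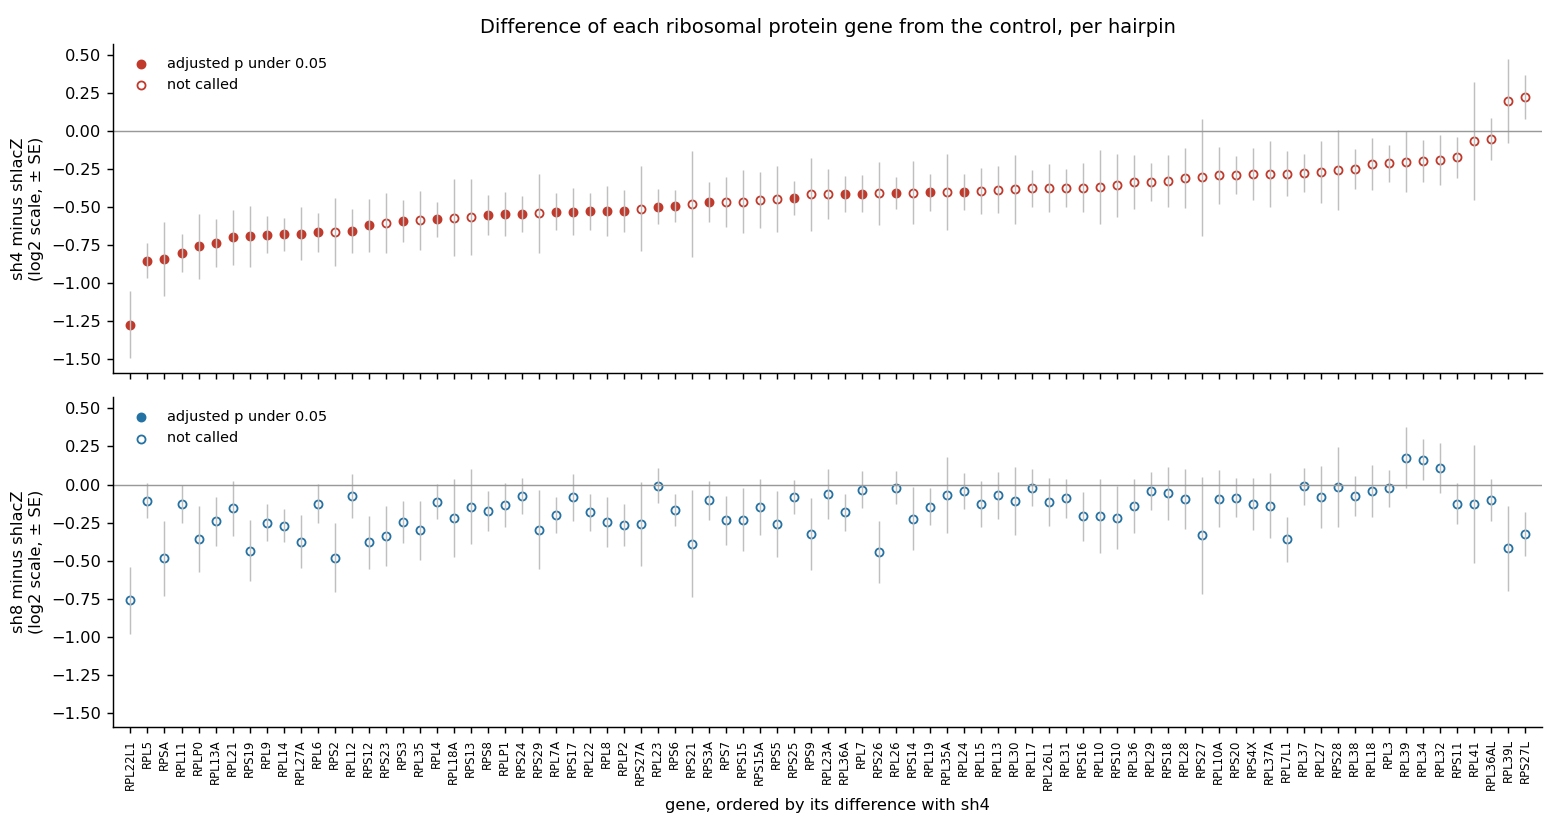
Log2 difference from shlacZ of each of the 83 genes with sh4 (above) and sh8 (below), ordered in both panels by the sh4 value, with the standard error from limma; filled points passed an adjusted p under 0.05. Filled points appear with sh4 in 33 genes and with sh8 in 0, and both panels use the same 3 control libraries.

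RPL5 and RPL11, which bind the 5S ribosomal RNA and, when free, the p53 ligase MDM2, had the lowest adjusted p-values with sh4. RPL5 had normalized counts of 19256, 21753 and 20228.5 in shlacZ, 10945 and 11693 with sh4, and 18923 and 18944 with sh8. The sh4 libraries stood far below the other 5, which lay close together, and the sh4 mean was 44.55% below the shlacZ mean (log2 difference -0.85 ± 0.114, SE, limma adjusted p = 0.00094). RPL11 showed the same order, with 6153, 7529 and 6952 in shlacZ, 3730.2 and 4156 with sh4, and 6001 and 6559.9 with sh8. Its log2 difference with sh4 was -0.80 ± 0.124 (SE, limma adjusted p = 0.00193). With sh8 the differences were -0.11 ± 0.114 for RPL5 and -0.13 ± 0.124 for RPL11 (SE, limma adjusted p = 0.663 and 0.628). Reads of RPL5 can be split with near copies, since 64.3% of its 31-base words also occur in other annotated transcripts, against 6.1% for RPL11.

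The stalk proteins RPLP0, RPLP1 and RPLP2, which recruit translation factors to the large subunit, all fell with sh4. RPLP0 had 7877, 12334 and 11867 normalized counts in shlacZ, 5628 and 6837 with sh4, and 6833 and 9805 with sh8 (sh4 log2 difference -0.76 ± 0.216, SE, limma adjusted p = 0.0313). The sh4 values lay below every control value, but sh8 replicate 2 lay above shlacZ replicate 1. RPLP1 gave 8278, 11275 and 9959 in shlacZ against 6262 and 7165 with sh4 (-0.54 ± 0.146, SE, limma adjusted p = 0.0243). RPLP2 gave 1184, 1566 and 1399 against 927.2 and 985.9 (-0.52 ± 0.139, SE, limma adjusted p = 0.0239). With sh8, RPLP0, RPLP1 and RPLP2 differed by -0.36, -0.14 and -0.27, none of them called.

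In the body of the large subunit, RPL4, RPL23 and RPL6 fell with sh4 and RPL3, RPL10 and RPL38 did not pass. RPL4, whose long loop reaches into the exit tunnel for the new protein chain, had 25783, 26705 and 26391 normalized counts in shlacZ, 16796 and 18460.1 with sh4, and 23892 and 24769 with sh8. Its sh4 values (log2 difference -0.58 ± 0.114, SE, limma adjusted p = 0.00614) lay well apart from the narrow range of the controls. RPL23 had 8551, 8970.1 and 8562 in shlacZ, 5651 and 6723 with sh4, and 8897 and 8401 with sh8, so the control and sh8 libraries overlapped and the sh4 libraries did not. RPL6 had 13777, 16612 and 15573.5 in shlacZ, 8867 and 10487 with sh4, and 13962 and 14039 with sh8. Of the genes that did not pass, RPL3, a protein of the peptidyl transferase centre, differed by -0.21 ± 0.121 with sh4, RPL10, a late-joining protein of the same region, by -0.37 ± 0.242, and RPL38 by -0.25 ± 0.132 (SE). RPL14 and RPL9 were also called, at -0.68 ± 0.109 and -0.68 ± 0.122 with sh4 (SE, limma adjusted p = 0.00231 and 0.00392), as was RPL13A (-0.74 ± 0.159, SE, limma adjusted p = 0.00948).

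In the small subunit, RPSA, RPS6, RPS3 and RPS19 fell with sh4. RPSA, known also as the laminin receptor, had 6387, 11004 and 10441 normalized counts in shlacZ, 4427 and 5724 with sh4, and 5321 and 7809 with sh8. The sh4 values lay below all controls (log2 difference -0.84 ± 0.245, SE, limma adjusted p = 0.0344), but shlacZ replicate 1 lay within the range of sh8. RPS6, the target of the S6 kinases downstream of mTOR, was steadier, with 16094, 16582 and 15790.1 in shlacZ, 11321 and 11703 with sh4, and 14427 and 14304 with sh8. All knockdown libraries of RPS6 lay below all controls, and only the sh4 difference was called (-0.49 ± 0.106, SE, limma adjusted p = 0.00979). RPS3, at the mRNA entry, and RPS19, mutated in Diamond-Blackfan anaemia, differed by -0.59 ± 0.137 and -0.69 ± 0.201 with sh4 (SE, limma adjusted p = 0.0129 and 0.0337). RPS2, RPS14, RPS26, RPS4X and the ubiquitin fusion RPS27A did not pass, with log2 differences of -0.66, -0.40, -0.41, -0.28 and -0.51. RPS2 had 10265, 16403 and 15459 in shlacZ and 8621 and 8748 with sh4, without overlap between those groups (limma adjusted p = 0.0591).

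**Figure D3:**
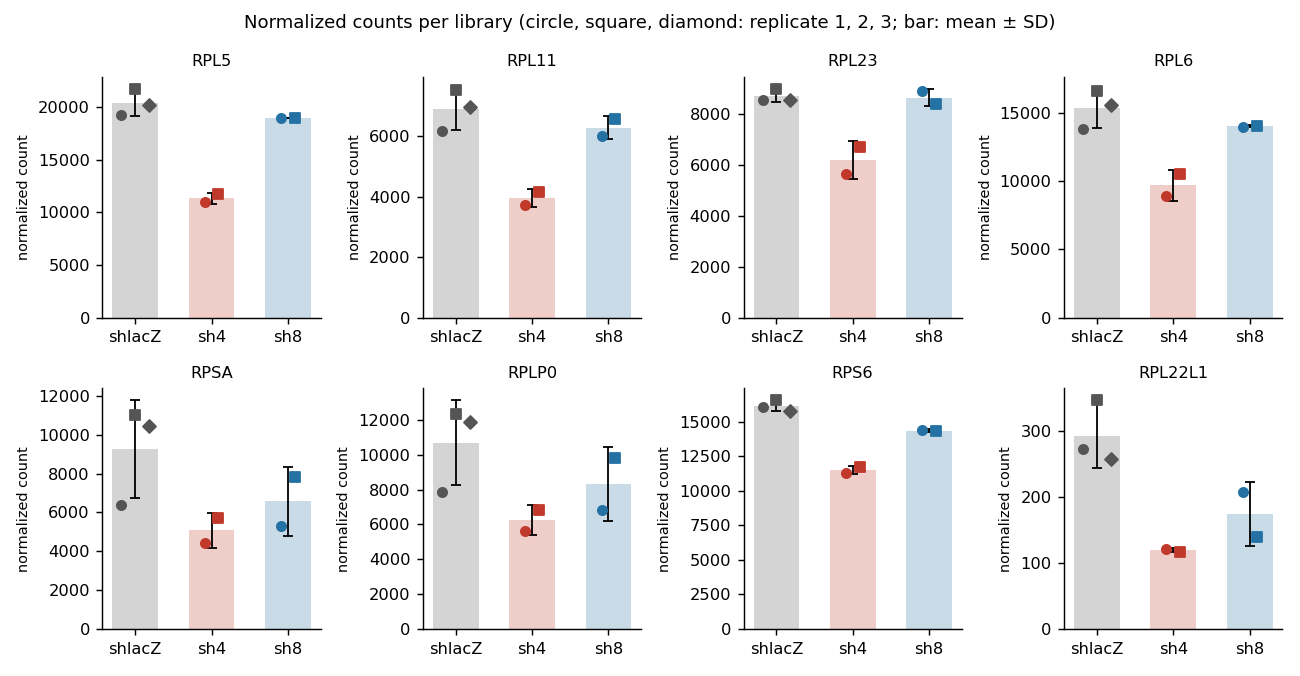
Normalized counts of 8 ribosomal protein genes in each library, with bars for the group mean, error bars for the SD and 1 symbol for each replicate number; axes start at 0. RPL5, RPL11, RPL23 and RPL6 are low in both sh4 libraries only, whereas RPSA and RPLP0 also spread widely within shlacZ and sh8.

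With sh8, 0 of the 83 genes passed in either direction by limma, and limma-voom on recovered reads also called 0. At an unadjusted p under 0.05, 4 were lower and 0 higher, against 9.69% of all genes lower. Over all genes tested, 1.54% were called lower and 1.38% higher with this hairpin. The median log2 difference was -0.14 (all genes -0.01) and 80 of the 83 values were negative. That median depended on single libraries. It was -0.03 without sh8 replicate 1 (47 values negative) and -0.07 without shlacZ replicate 2 (61 negative). It was -0.30 without sh8 replicate 2 (80 negative), -0.27 without shlacZ replicate 1 (81 negative) and -0.11 without shlacZ replicate 3 (74 negative). In 11 genes both sh8 libraries lay below all controls, against 17.9% of all genes. The deepest values were those of RPL22L1 (-0.76 ± 0.22, SE, limma adjusted p = 0.0977), RPSA (-0.49) and RPS2 (-0.48). The highest were those of RPL39 (0.18), RPL34 (0.16) and RPL32 (0.11), and none of these 6 was called. Without shlacZ replicate 1 the number called was 7, all of them lower.

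For both hairpins together (4 libraries against 3), 1 gene, RPL22L1, was called lower and 0 higher, against 2.06% lower and 2.55% higher over all genes. RPL22L1 differed by -1.02 ± 0.225 (SE, limma adjusted p = 0.0366). It was also the single fall of over 2-fold, against 0.694% of all genes. All 83 values were negative with a median of -0.30, and 26 had an unadjusted p under 0.05, against 12.9% of all genes lower at that p. Libraries numbered 1, which were low in these genes in every group (below), made up 2 of the 4 knockdown but 1 of the 3 control libraries. With replicate number as a block in the fit, the median was -0.25 and 80 values were negative. Without the libraries numbered 1, it was -0.31 and 81 were negative. In 9 genes all knockdown libraries lay below all controls, against 11.0% of all genes. Those 9 were RPL4, RPL5, RPL9, RPL14, RPL22L1, RPL26L1, RPL36A, RPLP2 and RPS6. The signs of the values nearest 0 depended on the scaling, since RPL39 (-0.01), RPL34 (-0.02) and RPL32 (-0.04) turned positive when libraries were scaled to equal totals. The number called was 4 without shlacZ replicate 1 and 2 without sh8 replicate 1, and it was 0 without any other single library.

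A direct test of sh4 against sh8 called 4 genes lower and 0 higher, all of the large subunit, against 3.33% lower and 3.67% higher over all genes. These were RPL5 (log2 difference -0.74 ± 0.125, adjusted p = 0.00815), RPL11 (-0.67 ± 0.136, adjusted p = 0.0173), RPL23 (-0.49 ± 0.127, adjusted p = 0.0485) and RPL6 (-0.54 ± 0.141, adjusted p = 0.0490), with SE and p from limma. The median over the 83 genes was -0.27 (all genes -0.01), and 46 had both sh4 libraries below both sh8 libraries, against 27.6% of all genes. RPL12 came next by size (-0.58 ± 0.159, SE, limma adjusted p = 0.0584). The highest values were those of the paralogs RPL39L (0.62), RPS27L (0.55) and RPL7L1 (0.08), none called. Some alternative settings did call 1 gene higher, among them the fit without shlacZ replicate 1 (11 lower and 1 higher). The number called was 12 without shlacZ replicate 1, 2 without shlacZ replicate 2 or 3, and 0 without any 1 of the 4 hairpin libraries. Those 0 counts test an arm of 1 library whose spread is taken from the other groups, and the difference of RPL11 there ran from -0.75 to -0.59 and that of RPL5 from -0.79 to -0.70.

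By subunit, sh4 lowered 23 of 51 large and 10 of 32 small subunit genes, against 11.9% of all genes, with median log2 differences of -0.40 and -0.46. The difference between the subunits was not tested. With sh8 the medians were -0.12 and -0.23. The summed normalized count of the large subunit over that of the small subunit was 1.78, 1.66 and 1.68 in shlacZ, 1.73 and 1.70 with sh4 (1.71 ± 0.024, SD, n = 2), and 1.86 and 1.75 with sh8 (1.80 ± 0.082, SD, n = 2). Both sh4 ratios lay within the range of the controls (1.71 ± 0.0676, SD, n = 3), and the highest control and the higher sh8 ratio belonged to libraries numbered 1.

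Per coding kilobase the shlacZ means of the other 77 genes ran from 1983 (RPS28) to 142179 (RPL41) normalized counts, with a median of 13270. Reads also come from the untranslated parts of a transcript, which this length leaves out. Genes with a short coding sequence, such as RPL41 with 75 bases, can therefore rank too high. RPL26L1, RPL22L1 and RPL39L, at 716, 800.3 and 993, were the lowest of all 83, while RPL36AL (2626), RPS27L (2745) and RPL7L1 (4299) lay within the range of the other 77. RPL22L1, the partly redundant partner of RPL22, had 273.5, 347.7 and 257.5 normalized counts in shlacZ, 122 and 117.2 with sh4, and 208.3 and 140.15 with sh8. All hairpin libraries lay below all controls, and the mean was 59.2% lower with sh4 (log2 difference -1.27 ± 0.22, SE, limma adjusted p = 0.00325). RPL22 itself differed by -0.53 ± 0.122 with sh4 and by -0.18 ± 0.122 with sh8 (SE, limma adjusted p = 0.0131 and 0.469). RPL22L1 made 4.60%, 4.80% and 3.88% of the RPL22 count in shlacZ, 2.83% and 2.41% with sh4, and 3.68% and 2.36% with sh8. The log2 ratio was lower in 4 of 4 knockdown libraries than in any control, by 0.663 on average. An exact permutation test of that ratio (two-sided, 35 splits, smallest possible p = 0.0286) gave p = 0.0571 and an adjusted p of 0.343 over the 6 pairs tested.

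With 6 pairs, a single pair at the smallest possible p would have an adjusted p of 0.171, so no pair alone could pass. The other pairs had exact permutation p-values of at least 0.171. RPS27L, a p53-inducible partner of RPS27, had 745.2, 609.6 and 720.3 normalized counts in shlacZ, 735.2 and 881.4 with sh4, and 558.9 and 539.7 with sh8. It was the highest of the 83 values with sh4 (0.22 ± 0.145, SE, limma adjusted p = 0.302), while its sh8 libraries lay below all controls (-0.33, limma adjusted p = 0.265). RPS27L made 63.2%, 23.0% and 28.9% of RPS27 in shlacZ, and the high value belonged to shlacZ replicate 1, where RPS27 itself was low. RPL36AL, a copy of RPL36A with 2 annotated exons, made 93.4%, 104% and 104% of it in shlacZ, 122% and 137% with sh4, and 111% and 100.9% with sh8. RPL39L, known from the testis, made 7.94%, 9.06% and 8.78% of RPL39 in shlacZ, 9.93% and 12.9% with sh4, and 6.23% and 5.16% with sh8, so that the hairpins lay on either side of the control.

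**Figure D4:**
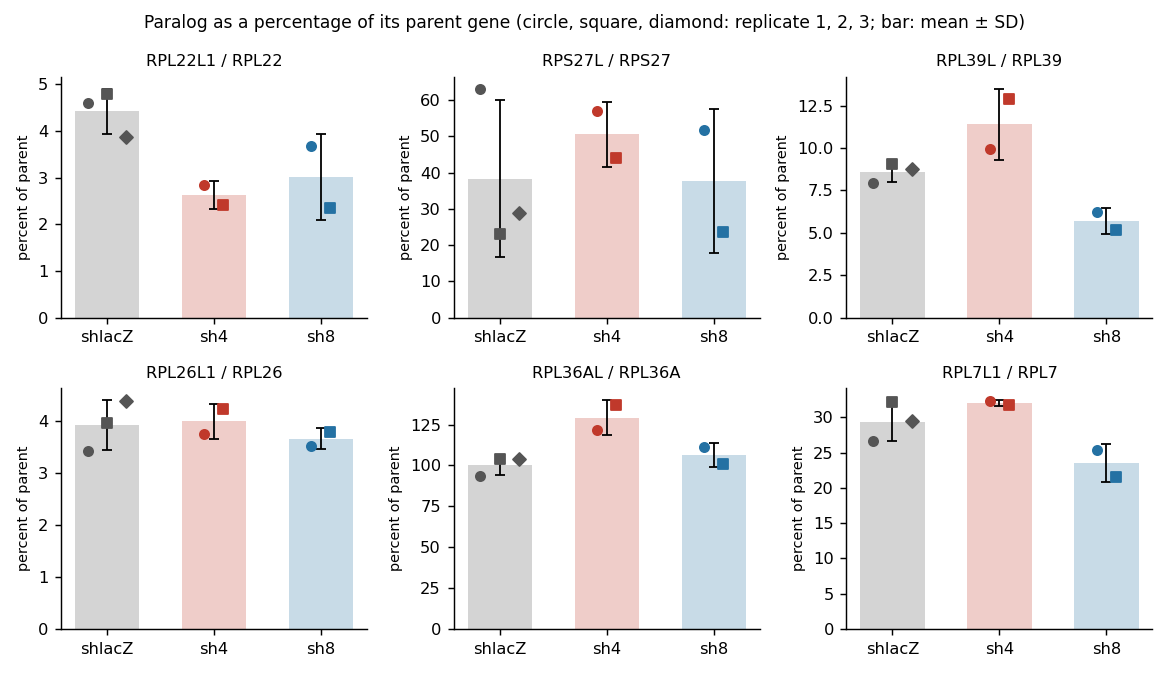
Normalized count of 6 paralogs as a percentage of their parent gene, with 1 symbol for each replicate number, bars for group means and error bars for the SD. RPL22L1 lies between 3.88% and 4.80% of RPL22 in shlacZ and at or below 3.68% in the 4 hairpin libraries, whereas the RPS27L share is high in each library numbered 1.

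The libraries numbered 1 were low in ribosomal protein genes in every group. Compared with the other libraries of its group, replicate 1 was lower for 79 of 83 genes in shlacZ, 78 in sh4 and 73 in sh8, with medians of -0.41, -0.20 and -0.26 on the log2 scale (all genes -0.03, -0.03 and -0.02). Across the 83 genes of the same libraries, the gap went with coding length at a Spearman rho of 0.18, 0.38 and 0.06 in shlacZ, sh4 and sh8, and with GC content at -0.44, 0.10 and -0.36. RPL41, which encodes the smallest of these proteins, had 5789, 13414 and 12787 normalized counts in shlacZ, 7415 and 12233 with sh4, and 6494 and 12850.4 with sh8. It split by replicate number and not by hairpin, as did RPS27 with 1179.7 against 2651 and 2489.7 in shlacZ. Over the 11 ribosomal protein genes with up to 300 coding bases the median gap was -0.66, -0.29 and -0.56, and over all 269 tested genes of that length it was -0.23, -0.23 and -0.05. Over all tested genes with more than 300 and up to 450 coding bases it was -0.24, -0.16 and -0.09, so the shortest genes did not have the widest gap there in shlacZ and sh8.

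Within libraries of the same number, sh4 minus shlacZ had a median of -0.25 in number 1 (74 of 83 genes lower) and -0.52 in number 2 (80 lower). For sh8 minus shlacZ it was -0.04 in number 1 (52 lower) and -0.20 in number 2 (76 lower). Without the 3 libraries numbered 1, an alternative added after seeing the data, 63 genes were called lower with sh4 and 7 with sh8 (RPL7L1, RPL22L1, RPL27A, RPL35, RPS2, RPS19 and RPSA). That fit rests on 1 library for each hairpin, whose spread is assumed to equal that of the 2 controls. The share of all genes called is not given for it. What the libraries numbered 1 share was not tested.

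**Figure D5:**
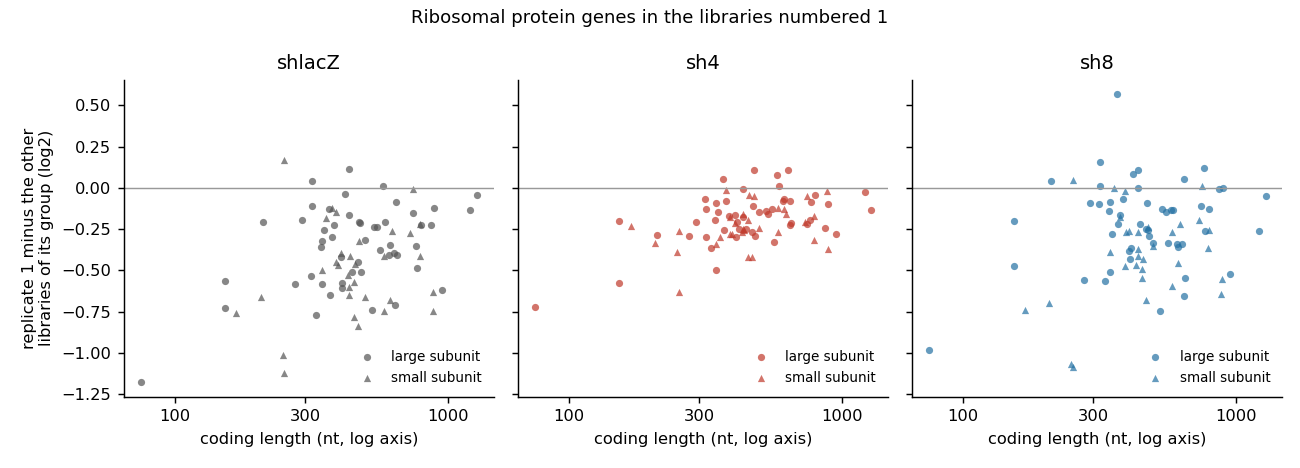
Log2 difference of replicate 1 from the other libraries of its group for each of the 83 genes, against the length of the coding sequence in bases on a log axis; circles are the large and triangles the small subunit. Most points lie below 0 in all 3 panels, and RPL41, at the left edge of each, lies at -1.18, -0.72 and -0.98.

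The sh4 calls were also counted by start sequence and by shared sequence, beside the 11.9% of all genes called lower. Of the 53 genes with a pyrimidine run, 24 were called lower (median log2 difference -0.41). Of the 14 without, 3 were (median -0.36), namely RPL6 (-0.66), RPL12 (-0.65) and RPS3A (-0.47). Those 14 include the listed paralogs RPL7L1, RPL26L1 and RPS27L, none of them called. Among the genes with a run, RPL34, RPL39 and RPL36AL, with runs of 18, 18 and 15 bases, were not called. The difference between genes with and without a run was not tested. Sequence shared with other genes was common, since a median of 41.5% of a gene's 31-base words occurred elsewhere in the annotation. Of the 33 genes that shared over 50%, 18 were called lower with sh4 (median -0.47), and of the other 50, 15 were (median -0.40). RPL9 (92.7%), RPL6 (87.2%), RPSA (81.5%) and RPLP0 (73.3%) were among the genes whose reads counting could divide with copies, and their values are uncertain to that extent. The 232 annotated ribosomal protein pseudogenes in the table took 1.09% to 1.46% of the summed count of the 83 genes.

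Other genes of translation and ribosome assembly were counted from lists, without a test of any list, beside the 11.9% of all genes called lower and the 10.5% called higher with sh4. Of 13 other TOP mRNAs listed under translation, 6 (46.2%) fell with sh4 and 0 rose (median log2 difference -0.40), and none was called with sh8 (median -0.07). PABPC1, the poly(A)-binding protein, and EEF2, which moves the ribosome along the mRNA, differed by -0.60 ± 0.134 and -0.52 ± 0.15 with sh4 (SE, limma adjusted p = 0.0111 and 0.0327). EEF1A1, the most abundant of the list, and TPT1 did not pass (-0.34 and -0.14). FAU and RACK1, which encode small subunit proteins outside the name rule, were not called with sh4 either (-0.16 and -0.40).

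Of 30 genes of ribosome assembly and ribosomal RNA synthesis, 16 (53.3%) fell with sh4 and 0 rose (median -0.59), and 0 passed with sh8 (median -0.31). Nucleolin (NCL), an abundant nucleolar protein, had 17314, 23589 and 20115 normalized counts in shlacZ, 9683 and 10627 with sh4, and 16214 and 11595 with sh8. All 4 knockdown values lay below all controls, and the sh4 difference was called (-0.99 ± 0.173, SE, limma adjusted p = 0.00343). Nucleophosmin (NPM1), MDN1 and the export receptor XPO1 differed by -0.79, -0.58 and -0.37 with sh4, each called. Of 11 chaperones and importers of ribosomal proteins, 4 (36.4%) fell with sh4, among them NAP1L1, BCCIP and KPNB1 (-0.54, -0.84 and -0.55), while IPO9 differed by -0.003. The 78 mitochondrial ribosomal protein genes, which serve a separate ribosome, gave 17 falls (21.8%) and 0 rises with sh4 (median -0.27) and 0 of either with sh8 (median -0.28).

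Among 12 tested regulators of these genes, 4 (33.3%) fell and 1 rose with sh4, against 11.9% and 10.5% of all genes. MYC had 3679, 4823 and 5178 normalized counts in shlacZ, 1740.3 and 1437 with sh4, and 3857 and 4289 with sh8. The sh4 libraries lay below all others (sh4 against shlacZ -1.51 ± 0.16, sh4 against sh8 -1.36, limma adjusted p = 0.000287 and 0.00277), and sh8 overlapped the control. LARP1, which binds TOP tracts, differed by -0.42 with sh4 (limma adjusted p = 0.0495), and MTOR by -0.14 (0.391). The 2 tested inhibitors of cap-dependent translation went opposite ways with sh4, EIF4EBP1 by -1.05 (0.00213) and EIF4EBP2 by 0.42 (0.0323). EIF4EBP1 lay below all controls in all 4 knockdown libraries and was also called for both hairpins together (-0.87, limma adjusted p = 0.0255). Of 8 tested genes of the p53 response that free RPL5 and RPL11 are known to feed, 0 passed with either hairpin by limma, with 1 lower and 2 higher with sh4 and 2 lower with sh8 at an unadjusted p under 0.05. MDM2 had 2433, 2764 and 2529 normalized counts in shlacZ, 3075 and 3849.6 with sh4, and 2184 and 1821 with sh8, and only the direct comparison of the hairpins passed (0.79, limma adjusted p = 0.0143).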

How the data were processed

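RNA of 7 libraries of 501Mel cells was depleted of ribosomal RNA and sequenced as stranded read pairs. Per the labels and the study's methods, the authors trimmed adapters with cutadapt, aligned reads to hg38 (GRCh38) with STAR, quantified genes with Salmon and used DESeq2. Tool versions are not given in the sources used here. The authors deposited 1 table of normalized counts, that is counts divided by a size factor per library, an assumption that removes a change shared by most genes. Of those values, 100% were whole multiples of 1 read (tolerance 0.1), from which reads were recovered for the totals per library and for limma-voom. 4633 genes had no symbol, and 0 columns belonged to other samples.

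Members were taken by symbol. limma 3.58.1 (R 4.3.3) was fitted with a variance trend to log2(normalized count + 1) for 15420 genes whose mean was 10 or more, and a pseudocount of 1 understates changes of low genes. Both hairpins were compared with shlacZ in a fit with 2 levels, and single hairpins in a fit of 3 groups. Calls needed a Benjamini-Hochberg adjusted p under 0.05. The over 2-fold count adds an absolute log2 difference over 1, as in the study. Paralog ratios were tested by exact permutation over libraries. Lists of other genes were described by counts and medians without a test. The limma script was checked on simulated counts, drawn independently with planted changes of 2-fold or more. That check does not cover smaller changes or shifts shared by many genes of a library. Coordinates, coding lengths and shared 31-base words came from GENCODE release 44, and promoters from RefSeq. Genes are named if they have a listed role or are paralogs or parents, if they are among the 3 highest or lowest of a comparison, and up to 4 of the most abundant per other list. EIF4EBP1, RPL6, RPL9, RPL13A, RPL14, RPL27A, RPL35, RPL41, RPS3A and RPS28 were named after their values were seen. The members and lists were chosen with earlier results of these data known.

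Alternatives covered the pseudocount, the minimum mean, 3 scalings, the variance trend, GC and length trends, the tool, the libraries fitted and each library left out.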

Additional observations from a re-analysis of the deposited data

Results flagged for a closer look

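Of 64 groups of 4 knockdown libraries checked for a value far from the others, 2 were flagged. Chance flags about 1 in 20 when all libraries of a group are alike. These groups mix both hairpins, so that rate need not apply. In RPL38 the gap of the farthest library took 0.835 of the whole range, with 2889 normalized counts in sh4 replicate 1 against 3521, 3537 and 3646. In FAU, which encodes a ribosomal protein fused to a ubiquitin-like one, it took 0.938, with 1196 in sh4 replicate 2 against 1073, 1065.04 and 1064.8.

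The other flags are genes for which sh4 and sh8 differed in the direct limma test. Among ribosomal protein genes these were RPL5 (log2 difference sh4 minus sh8 -0.743), RPL11 (-0.672), RPL6 (-0.538) and RPL23 (-0.488). Outside the family, MYC (-1.362), TYRP1 (-1.54), PMEL (-0.712), MITF (-0.587) and MDN1 (-0.482), an ATPase of large subunit assembly, were lower with sh4, and MDM2 (0.786) was higher. The explanations were not tested.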

How the results depend on the processing

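The median log2 difference of the 83 genes with sh4 stayed below 0 in all settings run (-0.575 to -0.279), and 0 genes were called higher. The number called was 33 and moved to 11 with no variance trend and 63 without the 3 libraries numbered 1, and ran from 5 to 64 with single libraries left out. For both hairpins together the number was 1 and moved to 16 as the mean of both hairpins in the fit of 3 groups and to 0 with no variance trend, with the replicate block or without the libraries numbered 1 (0 to 4 with single libraries left out). With sh8 it was 0 and moved to 7 without the libraries numbered 1 (0 to 7 with single libraries left out). For sh4 against sh8 it was 4 and moved to 2 with no minimum mean, 1 with no variance trend, 10 with the replicate block, 20 without the libraries numbered 1 and 8 with the GC and coding length trend removed (0 to 12 with single libraries left out). For sh4 against sh8, 1 of the genes called was higher with equal totals, with voom and with either GC trend removed. The share of all genes called is not given for the alternative settings. The causes were not tested. Same-numbered libraries did not all deviate together over all genes (r from -0.0781 to 0.337), so the numbers are not taken as pairs. With the replicate block, 37 genes were called with sh4 (median -0.38, 80 values negative) and 0 with sh8 (median -0.11, 74 negative). Within the 83 genes same-numbered libraries did deviate together (r from 0.489 to 0.858). So did shlacZ replicate 3 with replicate 2 of sh4 (0.579) and of sh8 (0.882). The deviations of the 2 libraries of a hairpin mirror each other, so these r values are not independent and do not show pairing by number.

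Equal totals moved the median of all genes with sh4 from -0.01 to 0.09, and the median of the 83 genes differed from it by -0.40 in both scalings. Quantile normalization brought that gap to -0.25. Of the 1657 values of single genes, 1388 kept their direction and side of the threshold, 221 no longer passed, 10 newly passed and 38 changed sign, all in knockdown against shlacZ. With equal totals, RPL32 (0.018), RPL34 (0.042), RPL39 (0.047) and RPS27L (0.007) were above 0, with voom RPL32 (0.018), RPL34 (0.043), RPL39 (0.048) and RPS27L (0.019), and with quantile normalization RPL3 (0.047), RPL32 (0.062), RPL34 (0.054) and RPL39 (0.057). With the GC and coding length trend removed, RPL32 (0.046), RPL34 (0.076), RPL36AL (0.013), RPL39 (0.044) and RPS27L (0.031) were above 0, as was RPL34 (0.012) with the GC and transcript length trend removed. With the replicate block RPL32 (0.029) and RPL39 (0.078) were, and without the libraries numbered 1 RPL34 (0.005) and RPS27L (0.058). With single libraries left out, RPL32 ran from -0.179 to 0.037, RPL34 from -0.122 to 0.068, RPL39 from -0.2 to 0.088, RPL39L from -0.354 to 0.027 and RPS27L from -0.187 to 0.049. Leaving out 1 library also turned the paralog ratios RPS27L/RPS27 (-0.031 to 0.698), RPL39L/RPL39 (-0.327 to 0.112), RPL26L1/RPL26 (-0.126 to 0.051) and RPL7L1/RPL7 (-0.178 to 0.017). The edgeR alternative was not run. Values near the minimum mean are limited by counting.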
